A study of Mus musculus with 6 samples.

Results

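The microRNAs mmu-miR-150, mmu-miR-181a, mmu-miR-181d and mmu-miR-185 (below without the species prefix) are grouped here as lymphoid miRNAs. They were read in osteoclasts, myeloid cells that resorb bone. They were chosen by name, as the guide-strand assays of these miRNAs in the deposited table, and make up 4 of its 709 miRNA assays. All 4 belong to the 95 assays (13.4%) with a value in every sample. The choice was made with earlier results of these data known, so this is no result about detection. Magnetic sorting of mouse bone marrow cells for the surface proteins OSCAR and CTR had given the osteoclasts. In 3 samples (OCmiR-KD) the mice carried a knockdown of osteoclast miRNAs, and in the other 3 (OCmiR-Intact) they were controls whose osteoclast miRNAs were intact. The sources used here do not give the agent, allele, promoter or driver of the knockdown, nor the strain and age of the mice. The design text speaks of pooled RNA of 3 mice per group while the labels list 3 samples per group, so the spread behind each p-value is that between these samples and may be technical. Total RNA was measured by SYBR Green real-time PCR over 40 cycles.

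A miRNA is cut from a hairpin and guides a repressor complex to messenger RNAs that pair with its seed, bases 2 to 8. miR-150 is abundant in mature B and T cells, where it represses the transcription factor Myb, and it is low in their early progenitors. miR-181a is high in developing T cells of the thymus, where it sets the sensitivity of T cell receptor signalling by repressing phosphatases, and it favours the B lineage when made in blood progenitors. miR-181d has the seed of miR-181a. In humans, the gene of miR-185 lies in the chromosome region lost in DiGeorge syndrome, in which T cells are few.

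The miR-181 sequences are shown because the 4 relatives were all assayed and only miR-181a and miR-181d gave values. They are RefSeq's mature strands (GRCm38.p6), 5′ to 3′, with the seed in capitals.
miR-181a-5p: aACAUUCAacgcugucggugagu
miR-181b-5p: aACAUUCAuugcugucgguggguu
miR-181c-5p: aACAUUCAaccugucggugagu
miR-181d-5p: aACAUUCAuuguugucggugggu
All share 1 seed. Counted from 1 at the 5′ end, miR-181d differs from miR-181a by A9U, C10U, C12U and A21G. From miR-181b it differs over their shared length by C12U alone, and miR-181a and miR-181c are 1 edit apart. Each measured miR-181 therefore has an assay without values within 1 base of it. The sources used here do not say whether the primers tell such relatives apart. In the deposited sequences the nearest other assay to miR-150, and likewise to miR-185, is 8 edits away.

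The miR-181 genes lie in pairs. Mature miR-181a comes from Mir181a-1 (chr1:137966468-137966490, plus strand) and from Mir181a-2 (chr2:38852741-38852763, plus strand). Their hairpins lie 97 bases from that of Mir181b-1 and 1019 bases from that of Mir181b-2. Mature miR-181d comes from Mir181d (chr8:84178759-84178781, minus strand), 85 bases from the hairpin of Mir181c. In every pair, the assay of 1 relative had values and that of the other was Null. Mir181a-1 and Mir181a-2 give the same mature sequence, so the miR-181a readings do not show which of these genes was their source. The hairpin of Mir181a-2 lies within the span of Nr6a1, and that of Mir185 (chr16:18327401-18327465) within Tango2. Exon or intron was not determined here. Neither Mir150 (chr7:45121757-45121821) nor Mir181d overlaps another gene in the RefSeq table.

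Levels below are minus delta Ct. Ct is the cycle at which fluorescence crosses a threshold, and delta Ct is that cycle minus that of the small nuclear RNA U6 in the same sample and plate. A level of 0 equals U6, and 1 unit up stands for about 2 times as much template. All 4 assays stood on plate 1, where U6 crossed at 31.117, 30.563 and 29.346 cycles in OCmiR-KD 1 to 3 and at 29.286, 29.572 and 30.343 cycles in OCmiR-Intact 1 to 3. A limit holds for every difference below. In 88 of the 95 assays, the 4 lymphoid miRNAs included, the 3 OCmiR-KD values average 1 to within 0.001 on a linear scale relative to the U6 well of plate 1, for assays of either plate. In OCmiR-Intact samples this holds for 0 of 95. The OCmiR-KD mean of these assays is thus no measurement of its own, and "fell" means that the deposited OCmiR-Intact values lie above it. These linear values come from the deposited Ct, so the OCmiR-KD Ct values of these assays carry the same tie and are no free readings. The sources used here do not say how the OCmiR-KD values came to average 1.

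miR-150 had levels of 0.229, 0.816 and -3.875 in OCmiR-KD samples 1 to 3, against 4.434, 4.439 and 4.479 in OCmiR-Intact samples 1 to 3. The OCmiR-Intact samples lay within 0.045 units of each other, while OCmiR-KD 3 lay far below the other two OCmiR-KD samples, and the groups did not overlap. Its level averaged -0.94 ± 2.56 in OCmiR-KD and 4.45 ± 0.025 in OCmiR-Intact samples (SD, n = 3 each), a difference of -5.39 log2 units (95% interval -8.09 to -2.69, SE 1.16, limma adjusted p = 0.00286). The fit takes a common spread for both groups, which these SDs do not show, so this interval and p-value are approximate. Without OCmiR-KD 3 the difference was -3.93, without OCmiR-KD 2 it was -6.27, and without OCmiR-KD 1 it was -5.98.

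miR-181a had levels of -2.36, -2.898 and 1.417 in OCmiR-KD samples 1 to 3, against 1.073, 1.308 and 2.198 in OCmiR-Intact samples 1 to 3. Here the groups overlapped: OCmiR-KD 3 lay above OCmiR-Intact 1 and OCmiR-Intact 2, and the other two OCmiR-KD samples lay below every OCmiR-Intact sample. The deposited Ct of OCmiR-KD 3, which carries the tie to U6 given above, was 27.929 cycles. That is earlier than any OCmiR-Intact sample (28.213, 28.264 and 28.145 cycles). The mean level was -1.28 ± 2.35 in OCmiR-KD and 1.53 ± 0.59 in OCmiR-Intact samples (SD, n = 3 each). The difference of -2.81 (95% interval -5.39 to -0.22, SE 1.11) passed the threshold narrowly (limma adjusted p = 0.0436). Leaving out any sample other than OCmiR-KD 3 ended this call, with limma adjusted p between 0.0654 and 0.157. Without OCmiR-KD 3 the difference was -4.16 (limma adjusted p = 0.00021), and without OCmiR-KD 2 it was -1.998. With the linear OCmiR-KD mean fixed, a high OCmiR-KD 3 goes with low values in the other OCmiR-KD samples. The larger fall without OCmiR-KD 3 is therefore no support of its own.

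miR-181d had levels of -0.124, -0.456 and 0.437 in OCmiR-KD samples 1 to 3, against 3.993, 3.807 and 5.366 in OCmiR-Intact samples 1 to 3. The groups lay 3.37 units apart at their closest, and the highest value in each group was that of sample 3. It averaged -0.048 ± 0.45 in OCmiR-KD and 4.39 ± 0.85 in OCmiR-Intact samples (SD, n = 3 each), and differed by -4.44 (95% interval -5.83 to -3.04, SE 0.60, limma adjusted p = 0.000235).

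miR-185 had levels of -0.31, 0.133 and 0.133 in OCmiR-KD samples 1 to 3, against 4.59, 3.77 and 4.405 in OCmiR-Intact samples 1 to 3. It was the most even of the 4 in OCmiR-KD samples, and the groups lay 3.64 units apart at their closest. OCmiR-KD 2 and OCmiR-KD 3 share 1 delta Ct, equal in every decimal, although their Ct values were 30.43 and 29.213 cycles, as in 6 of the 95 assays. The mean level was -0.015 ± 0.26 in OCmiR-KD and 4.26 ± 0.43 in OCmiR-Intact samples (SD, n = 3 each). Its difference of -4.27 (95% interval -5.41 to -3.13) had the smallest error of the 4 (SE 0.49, limma adjusted p = 0.000101).

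**Figure D1:**
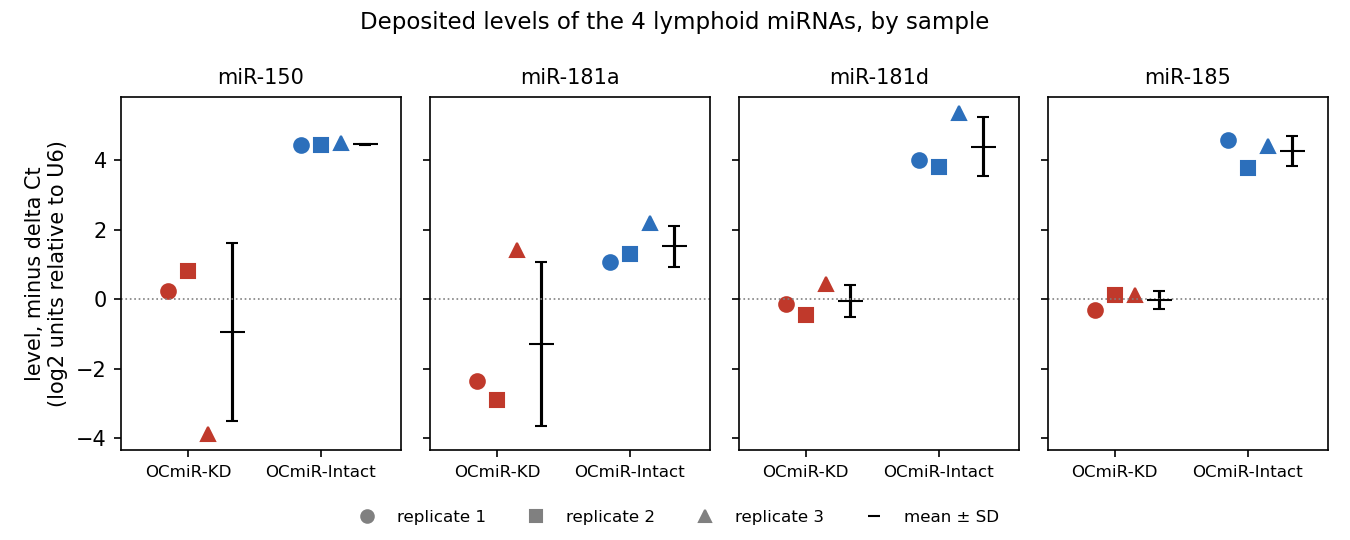
Level of each miRNA (minus delta Ct, log2 units relative to U6) in every sample, with OCmiR-KD samples in red and OCmiR-Intact samples in blue, symbols by replicate number, and black bars for mean ± SD (n = 3). OCmiR-KD 3 is the low point of miR-150 at -3.875 and the high point of miR-181a at 1.417, where it lies among the OCmiR-Intact samples.

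Relative to U6, 4 of the 4 miRNAs fell, against 80 of 95 assays (84.2%) lower in OCmiR-KD and 0 of 95 (0%) higher (limma, adjusted p under 0.05; at an unadjusted p under 0.05, 0 were higher). In 3 of the 4 (not miR-181a) the groups did not overlap, a pattern shown by 78 of the 95 assays (82.1%). The median difference was -4.35 over the 4 and -4.54 over all 95. These counts and medians are near the background and are no result about lymphoid miRNAs as such. In bulk samples, fewer cells of a type and less RNA per cell cannot be told apart.

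By size of fall, miR-150 stood at place 32 of 95, miR-181d at 50, miR-185 at 57 and miR-181a at 75. This order is that of the OCmiR-Intact levels. The lead of miR-150 over miR-181d, however, comes mostly from its lower mean OCmiR-KD level (-0.94 against -0.048), which reflects how widely spread values average on a log scale. The OCmiR-Intact levels of miR-150, miR-181d and miR-185 lay within 0.20 units of each other, at places 43, 46 and 48 from the highest. That distance is less than the SD of miR-181d or miR-185 across samples. miR-181a was lower at place 84. Since each assay has its own primers, this is an order of assay readings and not of abundance.

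**Figure D2:**
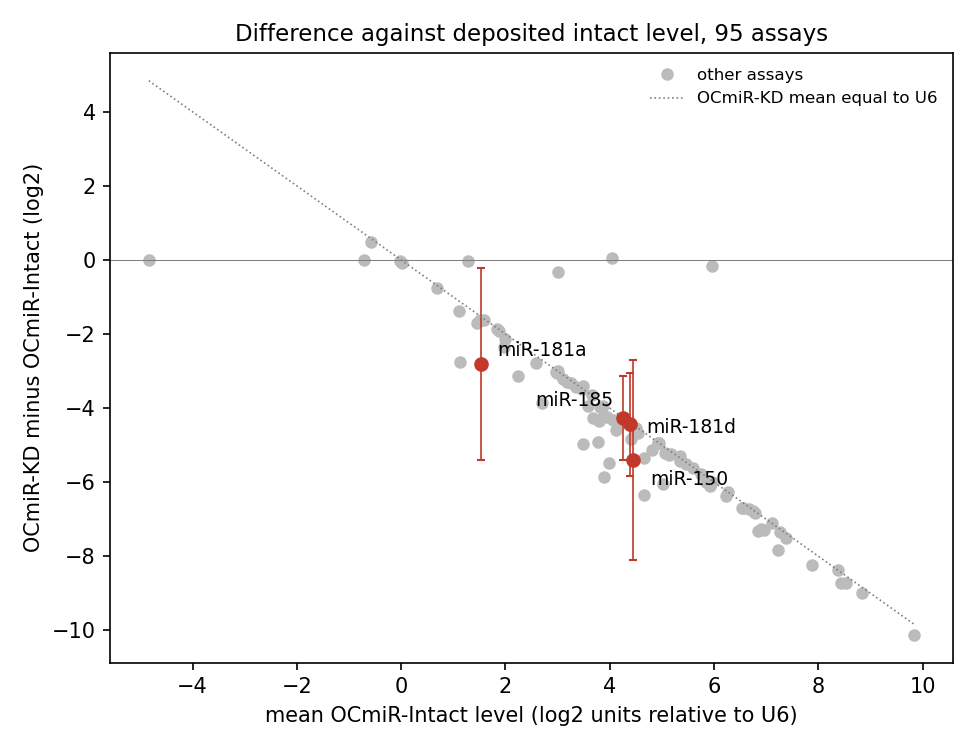
Difference of each of the 95 assays (OCmiR-KD minus OCmiR-Intact, log2) against its mean OCmiR-Intact level (log2 units relative to U6), with the 4 lymphoid miRNAs in red with limma 95% intervals. The dotted line marks a mean OCmiR-KD level equal to U6. miR-181d and miR-185 lie close to it, and miR-150 and miR-181a lie below it by 0.94 and 1.28 units, the size of their mean OCmiR-KD levels of -0.94 and -1.28.

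Where the OCmiR-KD values spread widely, the size of the fall depended on how they were averaged. The authors' deposited table gives folds of OCmiR-Intact over OCmiR-KD of 42.049 for miR-150, 6.997 for miR-181a, 21.651 for miR-181d and 19.288 for miR-185, which rest on means of delta Ct. Computed from linear means instead, a choice made after seeing the data, the same ratio was 21.9 for miR-150 and 3.06 for miR-181a. These are 1.92 and 2.29 times smaller than the folds from mean delta Ct. For miR-181d the linear ratio was 23.7 and for miR-185 it was 19.6, close to the deposited folds. The order of miR-150 and miR-181d by size of fold therefore turned with the kind of mean, and the difference between these folds was not tested.

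The 2 measured miR-181 relatives were compared within samples, since the U6 reading cancels from a contrast inside a sample on 1 plate. The fixed means still bear on it. The linear OCmiR-KD means of both are set to 1, while the linear OCmiR-Intact means were 3.06 for miR-181a and 23.7 for miR-181d. A lower contrast in OCmiR-KD was thus favoured beforehand, and the test below is no support of its own. The level of miR-181d minus that of miR-181a was 2.236, 2.442 and -0.98 in OCmiR-KD samples 1 to 3, against 2.92, 2.499 and 3.168 in OCmiR-Intact samples 1 to 3. Every OCmiR-KD value lay below every OCmiR-Intact value, but 2.442 in OCmiR-KD 2 and 2.499 in OCmiR-Intact 2 nearly touched. The contrast averaged 1.23 ± 1.92 in OCmiR-KD and 2.86 ± 0.34 in OCmiR-Intact samples (SD, n = 3 each). The difference of -1.63 had the smallest p that 3 against 3 allows (exact permutation test, two-sided, p = 0.1) and so could not reach 0.05. After quantile normalization the difference was -0.80 (exact permutation test, two-sided, p = 0.9). Without OCmiR-KD 3, the sample with the negative contrast, it was -0.52, so the size of this difference rests mainly on that sample.

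The sample-by-sample spread divided the 4 miRNAs. In OCmiR-KD samples this spread was not free: with the linear mean fixed at 1, a high value in 1 sample goes with low values elsewhere. The ranks and ranges below describe the deposited values under that bound. In OCmiR-KD samples the SD of miR-150 ranked 7 from the largest among the 95 assays and that of miR-181a ranked 10, while miR-181d ranked 72 and miR-185 ranked 87. The highest OCmiR-KD value exceeded the lowest by 25.8 times for miR-150 and 19.9 times for miR-181a, but by 1.86 times for miR-181d and 1.36 times for miR-185. The median SD over the 95 assays was 0.80 in OCmiR-KD and 0.48 in OCmiR-Intact samples. In OCmiR-Intact samples the SD of miR-150 was the second smallest of the 95, so miR-150 combined one of the widest spreads of the OCmiR-KD samples with one of the narrowest of the OCmiR-Intact samples. This was not particular to miR-150. The SDs in OCmiR-KD and OCmiR-Intact samples were 2.61 and 0.105 for let-7a, and 2.54 and 0.111 for miR-144. The narrow OCmiR-Intact spread also depended on scaling to U6. In Ct before that scaling, the OCmiR-Intact SD was 0.52 cycles for miR-150 and 0.060 cycles for miR-181a. miR-181d spread more widely in OCmiR-Intact samples, with an SD of 0.45 in OCmiR-KD and 0.85 in OCmiR-Intact samples.

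**Figure D3:**
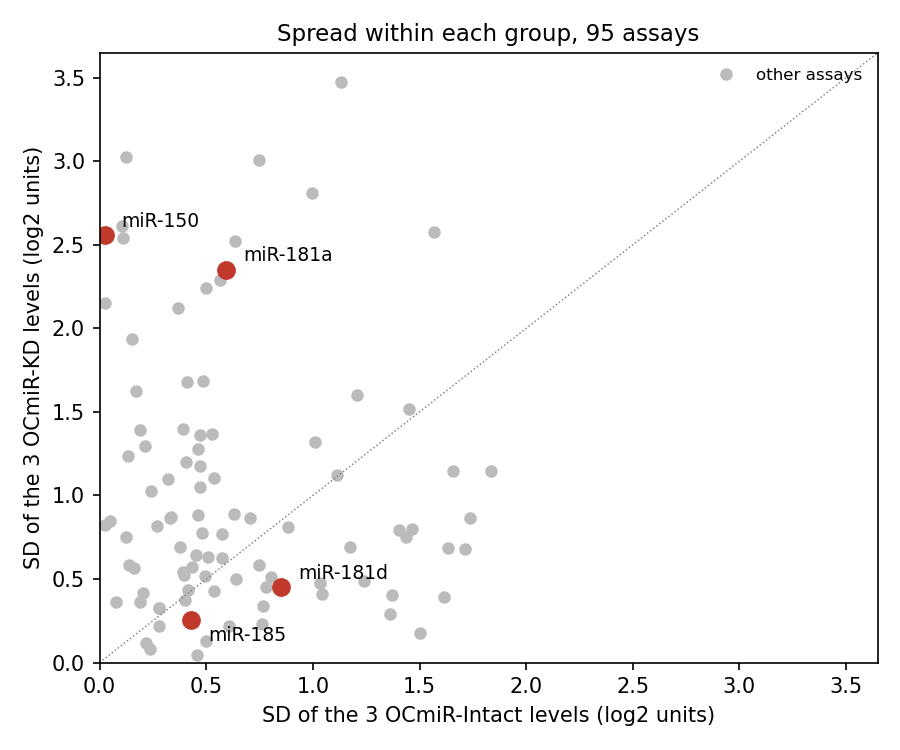
SD of the 3 OCmiR-KD levels against SD of the 3 OCmiR-Intact levels (both in log2 units) for the 95 assays, with the 4 lymphoid miRNAs in red and a dotted line of equal spread. miR-150 (2.56 in OCmiR-KD, 0.025 in OCmiR-Intact) and miR-181a (2.35 in OCmiR-KD, 0.59 in OCmiR-Intact) lie far above the line, and miR-181d (0.45 in OCmiR-KD, 0.85 in OCmiR-Intact) and miR-185 (0.26 in OCmiR-KD, 0.43 in OCmiR-Intact) lie below it.

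Within the bound of the fixed means, the deposited OCmiR-KD values of miR-150 and miR-181a spread in opposite directions. OCmiR-KD 3 lay 2.93 units below the OCmiR-KD mean for miR-150 (a deviation of -2.932) and 2.70 units above it for miR-181a. Over all 95 assays OCmiR-KD 3 was the highest OCmiR-KD sample in 40 and the lowest in 32, so neither direction was rare. Likeness of pattern was measured as the root mean square difference, over the 6 samples, of levels after subtracting each assay's own group means. By this measure miR-150 was the least like miR-181a of the 94 other assays, at 2.85 units. miR-181d, with the same seed, ranked 17 from the most like miR-181a at 1.13 units, where the median over all other assays was 1.43.

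The assays most like miR-150 were let-7f (0.437 units) and let-7a (0.463), against a median of 1.64 over the 94 others. Those most like miR-181a were miR-144 (0.366), known from red cell precursors, and miR-106b* (0.550). miR-181d lay nearest to miR-191 (0.340) and miR-26a (0.341), and miR-185 to miR-532-5p (0.119) and miR-7a (0.189). Like miR-150, let-7f and let-7a were low in OCmiR-KD 3, with deviations of -2.23 and -2.96 from their own OCmiR-KD means. miR-144 and miR-106b* were high there, as miR-181a was, with deviations of 2.93 and 3.46. All patterns share the same 6 samples, and all of these assays but miR-106b*, which stood on plate 2, share the U6 readings of plate 1. These distances are descriptions only.

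**Figure D4:**
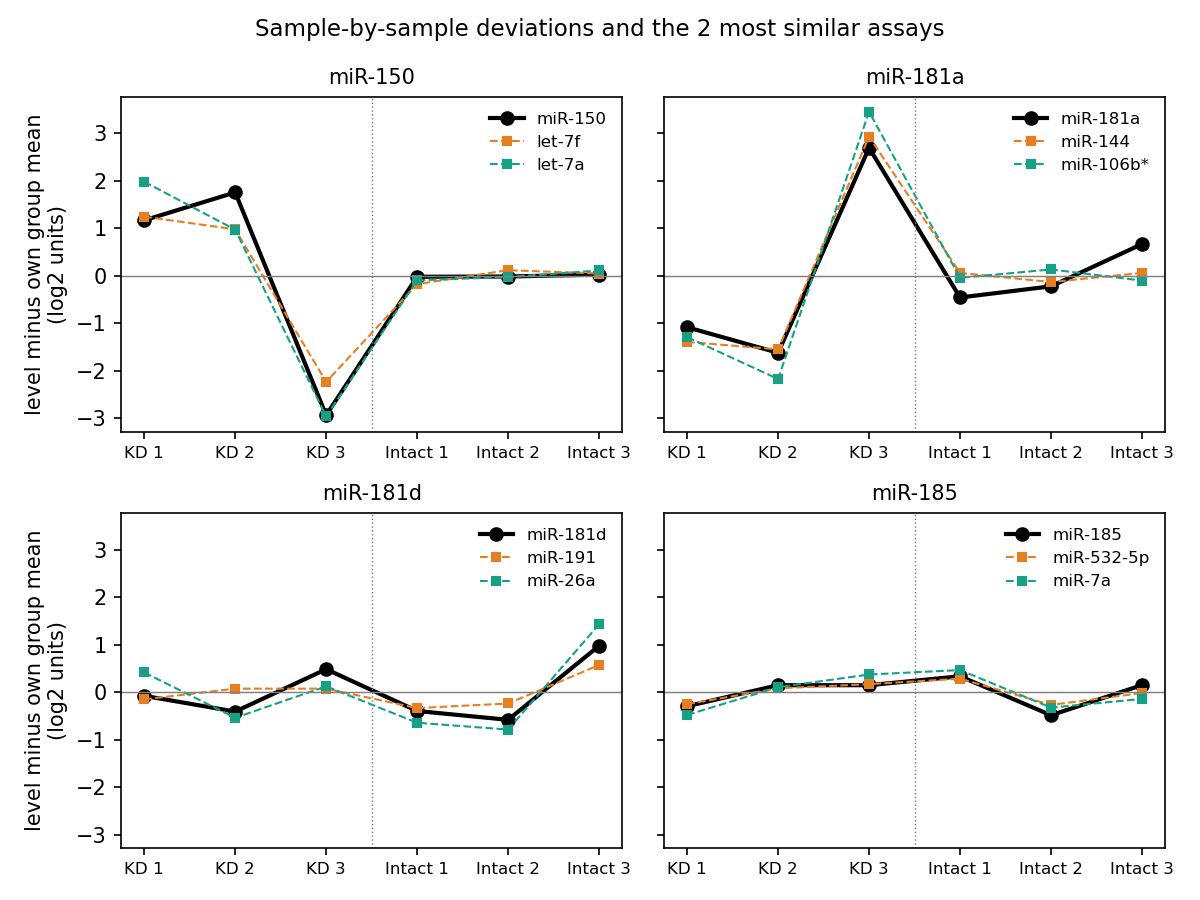
Level minus the assay's own group mean (log2 units) in each sample for each lymphoid miRNA (black) and the 2 assays with the smallest root mean square difference from it (colours), with OCmiR-KD samples to the left of the dotted line and OCmiR-Intact samples to the right. The lines only join the values of 1 assay. OCmiR-KD 3 is at -2.932 for miR-150 and at 2.697 for miR-181a, while miR-185 stays between -0.485 and 0.335 in all samples.

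The falls were called relative to U6, relative to the other control wells and with no reference, but not after scaling to the assays themselves. The OCmiR-KD Ct values are tied to U6 of plate 1 by the fixed means. Dropping or changing the reference therefore does not free the differences from U6. With no reference the differences were -6.00 for miR-150, -3.42 for miR-181a, -5.04 for miR-181d and -4.88 for miR-185. Against the 4 other control wells, which the tables leave unnamed, they were -5.86, -3.27, -4.90 and -4.74 in the same order, and the 4 passed limma's threshold in both settings, as did 84 of the 95 assays (88.4%) in each, all lower in OCmiR-KD. Centred on the mean of the 95 assays, where 19 assays (20.0%) passed below the mean change and 19 (20.0%) above it, 0 of the 4 passed in limma, and 0 at an unadjusted p under 0.05. There miR-150 stood at -0.91 (95% interval -3.64 to 1.82), miR-181a at 1.68 (-0.83 to 4.18), miR-181d at 0.05 (-1.32 to 1.41) and miR-185 at 0.21 (-0.90 to 1.33). Their median was 0.13, against -0.06 over all 95. After quantile normalization, where 5 assays (5.26%) passed below and 8 (8.42%) above, 0 of the 4 passed either.

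**Figure D5:**
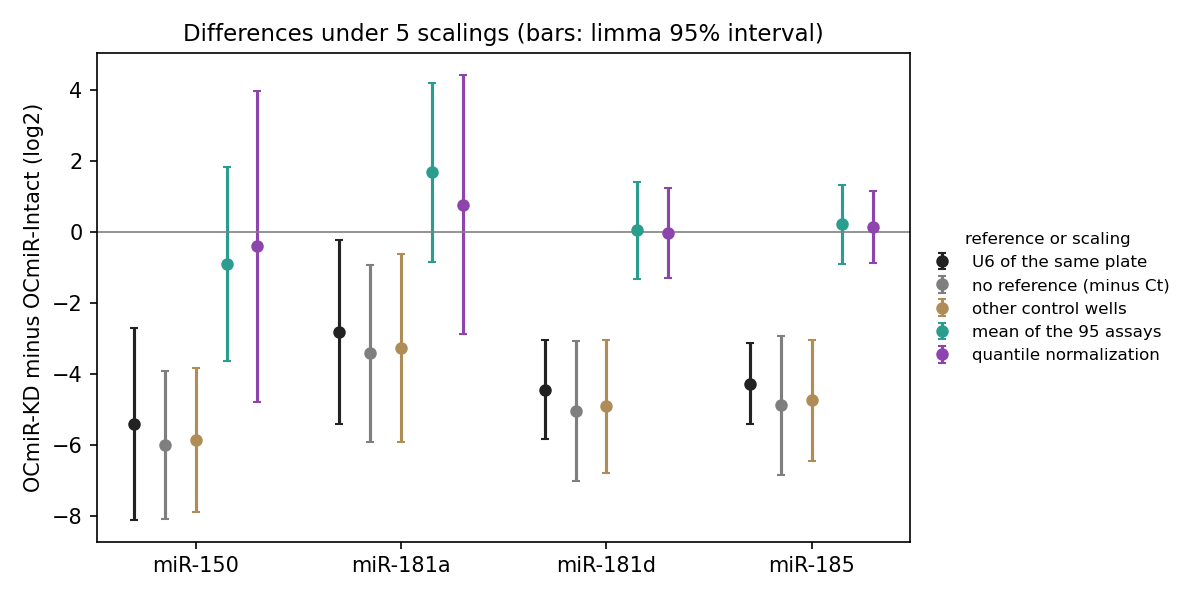
Difference of each lymphoid miRNA (OCmiR-KD minus OCmiR-Intact, log2, with limma 95% intervals, n = 3 each) under 5 references or scalings. With U6, no reference or the other control wells every interval lies below 0, and after centring on the 95 assays or quantile normalization every interval includes 0.

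Other miRNAs of lymphocytes were in part without values. Of 15 assays on the list (miR-150, the miR-181 relatives, miR-185, miR-155, miR-142 and miR-146, with their arms and star strands), 6 had values and 9 (60%) were Null in all 6 samples. Over the array, 614 (86.6%) of the 709 assays were Null in all 6. The 6 with values include the 4 members, which were chosen with earlier results of these data known, and none of the Null assays is a member. The lower Null share of the list is therefore no result about lymphocyte miRNAs. Null were miR-181b, miR-181c and miR-155, the last a miRNA induced in activated lymphocytes and macrophages. Null were also miR-142-3p, miR-146a and the star strands miR-150*, miR-181a-1*, miR-181a-2* and miR-146b*. The sources used here do not state the rule by which a well became Null, so Null does not show that the miRNA was absent.

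Both further measured assays on the list fell relative to U6, as did 84.2% of all assays. miR-142-5p, from a gene active across blood cells, had levels of -3.647, -3.754 and 1.509 in OCmiR-KD samples, against 4.582, 3.096 and 4.007 in OCmiR-Intact samples, a difference of -5.86 (SE 1.37, limma adjusted p = 0.00421). miR-146b, which dampens signalling to NF-kB, had levels of -1.86, -1.449 and 1.238 in OCmiR-KD samples, against 4.849, 4.116 and 5.029 in OCmiR-Intact samples, a difference of -5.36 (SE 0.86, limma adjusted p = 0.000584). In both, OCmiR-KD 3 was the high sample, as in miR-181a, and the groups did not overlap, which holds for 82.1% of all assays. Without OCmiR-KD 3 the differences were -7.60 for miR-142-5p and -6.32 for miR-146b. Without OCmiR-KD 1 they were -5.02 and -4.77 in the same order, and miR-142-5p was at -4.96 without OCmiR-KD 2. Centred on the 95 assays, miR-142-5p stood at -1.38 and miR-146b at -0.87, and neither passed. miR-142 and miR-146 are also made by myeloid cells.

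The sorting proteins are not read by a miRNA array, and miRNAs known from several cell types had values. The summed linear level relative to U6 of the 6 measured lymphocyte assays ran from 3.45 to 10.4 over OCmiR-KD samples and from 77.7 to 138 over OCmiR-Intact samples. For the osteoclast and myeloid list (5 of 10 assays with values, miR-31 Null) it ran from 3.44 to 7.14 in OCmiR-KD and from 267 to 614 in OCmiR-Intact samples. For the erythroid list (3 of 3) it ran from 1.44 to 5.02 in OCmiR-KD and from 14.9 to 17.2 in OCmiR-Intact samples. For the epithelial list (4 of 11, miR-141 and miR-200b Null) it ran from 3.14 to 5.26 in OCmiR-KD and from 1134.5 to 1776 in OCmiR-Intact samples. For the stromal list (3 of 5) it ran from 2.90 to 3.15 in OCmiR-KD and from 114 to 297 in OCmiR-Intact samples. For the endothelial and megakaryocyte list (1 of 2) it ran from 0.541 to 1.33 in OCmiR-KD and from 9.08 to 43.8 in OCmiR-Intact samples. The OCmiR-KD sums are tied to U6 by the fixed means. Each assay has its own primers, and the lists differ in their number of measured assays. The sums of different lists therefore do not give relative amounts of cell types. The part of lymphocytes or of other cells in the readings of the 4 miRNAs was not tested.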

How the data were processed

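MicroRNAs were measured in 3 OCmiR-KD and 3 OCmiR-Intact samples. The authors deposited Ct values for wells on 2 plates, delta Ct values on a log2 scale (Ct minus U6 of the same sample and plate, per the file headers and checked on the values), and folds of OCmiR-Intact over OCmiR-KD. Reverse transcription used the QuantiMir kit, per the labels' protocols. For the rule behind Null and for amplification efficiency the sources used here give nothing. Wells were joined by position, and 48 well names held as scientific notation were restored. Assays with a Ct under 35 in at least 3 samples were tested, which all 95 with values met. OCmiR-KD was compared with OCmiR-Intact in limma 3.58.1 (R 4.3.3, lmFit and eBayes without trend, two-sided), with Benjamini-Hochberg adjustment over 95 assays and a threshold of 0.05. The fit was also run on simulated data with equal normal noise in both groups. Such data lack the fixed means and the unequal spread seen here, so that run does not bear on the p-values reported. The within-sample contrast used an exact permutation test (scipy 1.17.1). A PCR array has no read depth, and the number of samples limits precision. Named miRNAs are the 4 members, the lymphocyte list and the 2 assays nearest to each member. The members and lists were chosen with earlier results of these data known. Alternatives were other references, quantile normalization, other filters, eBayes with trend or robust, leaving out each sample, a replicate block and, added later, linear means.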

Additional observations from a re-analysis of the deposited data

How the results depend on the processing

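With no filter on Ct, a Ct under 30, robust eBayes or U6 of plate 1 for both plates, the 4 falls kept their call. These settings cannot change the 4 estimates, only their errors, and dropping the filter changed nothing, since all 95 assays pass it. With no reference or the other control wells the 4 falls also kept their direction and their call. The OCmiR-KD Ct values used there are still tied to U6. Centred on the mean of the 95 assays, the differences were -0.91 for miR-150, 1.68 for miR-181a, 0.045 for miR-181d and 0.21 for miR-185, with 0 of 4 members and 38 of all assays called. After quantile normalization they were -0.41, 0.77, -0.034 and 0.14 in the same order, with 0 of 4 members and 13 of all assays called, and the contrast of miR-181d and miR-181a was -0.80. Both settings set the overall shift between groups to about 0 by construction. With eBayes trend, miR-181a stayed at -2.81 but missed the threshold (limma adjusted p = 0.0543). Leaving out 1 sample gave -6.27 to -3.93 for miR-150, -4.16 to -1.998 for miR-181a, -4.73 to -3.95 for miR-181d and -4.51 to -4.10 for miR-185. It gave 3 to 4 members called, 75 to 81 assays called, and -2.23 to -0.52 for the contrast of miR-181d and miR-181a. With linear means the differences were -4.45 for miR-150, -1.61 for miR-181a, -4.57 for miR-181d and -4.30 for miR-185, with no test. The titles share replicate numbers, but the numbers were not shown to pair the samples: deviations of same-numbered samples correlated at 0.025, 0.101 and 0.081 across assays, and OCmiR-KD 1 correlated best with OCmiR-Intact 2. With the replicate block the 4 falls passed (limma adjusted p = 0.00898 for miR-181a), as did 82 of the 95 assays (86.3%), and the contrast stayed at -1.63 (exact sign-flip test, p = 0.25, the smallest 3 pairs allow). Signal over background of the wells is not in the tables, so detection limits were not assessed.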
